A study of Mus musculus with 16 samples.

Results

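The 8 liver genes described here mark the hepatocytes around the central vein, or the Wnt signal that sets their programme: Glul, Slc1a2, Oat, Rhbg, Gulo, Axin2, Tbx3 and Lgr5. They were found as the probes of an Agilent mouse array whose gene name equals one of these 8 symbols, which gave 14 of 56605 probes and 8 of 37074 gene names. Liver RNA came from 16 male C57BL/6 mice, all conventional (Conv), free of antibiotics, fed a normal chow (NC) and 10 weeks old, with 1 array per mouse. Conv + PBS mice (n = 6, mice 1 to 6) received the vehicle, reduced PBS in the methods, while the sample labels call them not transplanted. Conv + LM mice (n = 5, mice 13 to 17) received caecal microbiota of lean NC-fed donors, and Conv + OM(HFD) mice (n = 5, mice 25, 26, 28, 29 and 30) that of donors made obese by a high-fat diet. Each inoculum was pooled from several donors and given weekly by gavage, and the recipients were fasted before tissue collection. They were kept in groups, and which mice shared a cage is not given in the sources used here. The p-values measure the spread between these mice.

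In the liver lobule, blood runs from the portal tract to the central vein, and hepatocytes differ along this path. Endothelial cells of the central vein and neighbouring sinusoids secrete Wnt2, Wnt9b and the R-spondin Rspo3. Through Frizzled and Lrp receptors these stabilise β-catenin, which switches on pericentral genes with TCF/LEF factors and represses periportal ones. The innermost hepatocytes make glutamine from ammonia that escaped urea synthesis upstream. Since the RNA came from whole liver, fewer pericentral cells and less RNA per cell cannot be told apart.

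None of the 8 genes passed an unadjusted p of 0.05 between groups in the limma fit. When the HFD-microbiota was set against the vehicle, 0 of 8 passed an unadjusted limma p of 0.05, while 3.27% of the 20404 genes tested passed. For the lean microbiota against the vehicle it was 0 of 8 against 3.95% of all genes, and for the HFD-microbiota against the lean one 0 of 8 against 2.71%. The exact permutation tests gave the same 0 of 8 in each comparison, against 3.22%, 3.99% and 3.1% of the genes that could be tested in this way. After Benjamini-Hochberg adjustment in limma no gene on the array passed 0.05 in any of these 3 comparisons. Values are log2 levels over the 75th percentile of the array, so a level of 0 is that percentile and a negative difference is a lower level. Levels were not compared between genes.

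**Figure D1:**
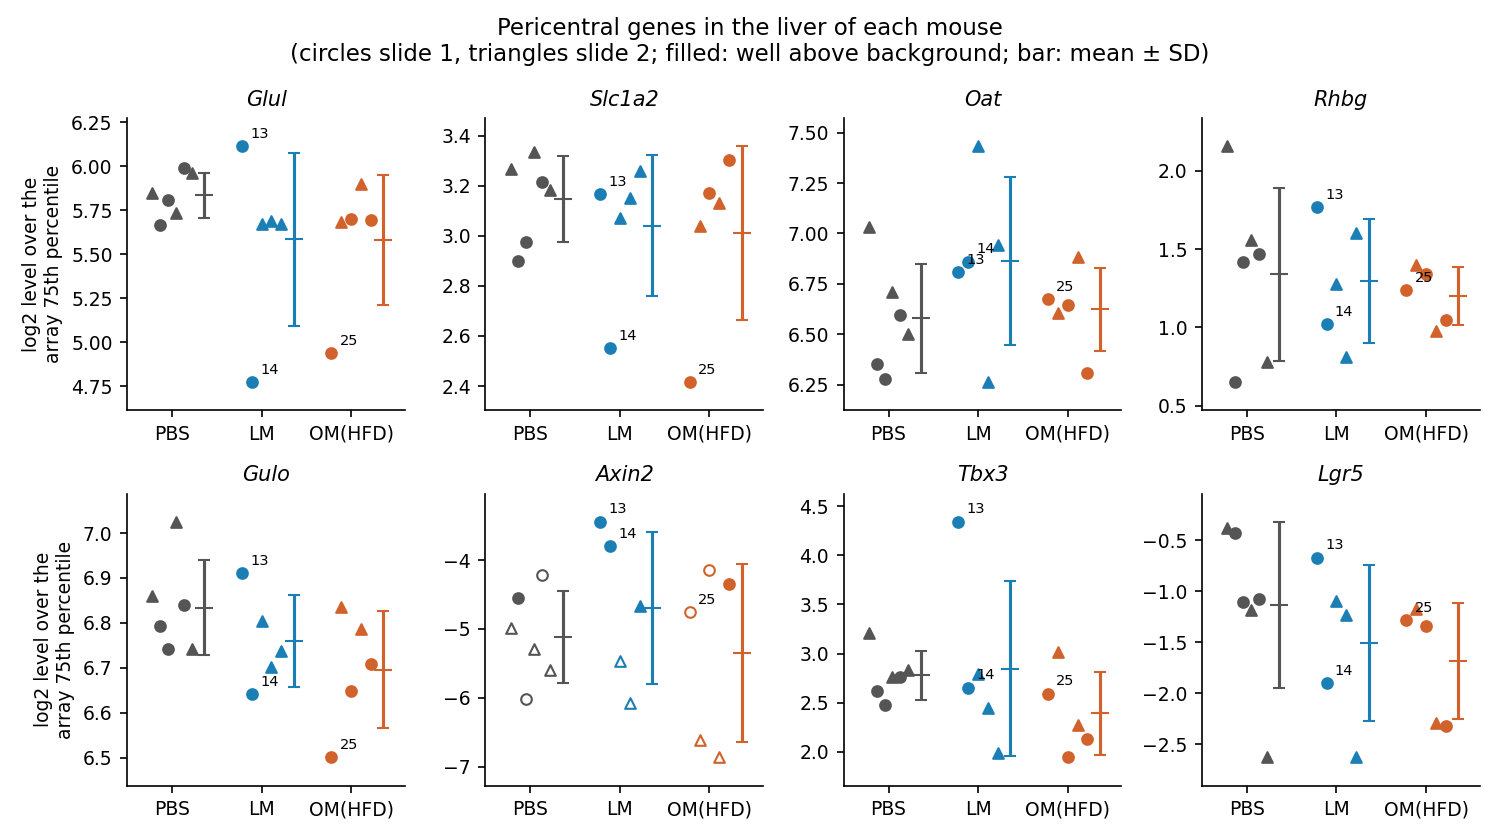
Log2 level over the 75th percentile of the array (y axis, own scale per panel) of the 8 pericentral genes in each of the 16 mice by group, with circles for slide 1, triangles for slide 2, open symbols where the probe was not well above background, and bars for the mean ± SD. Mice 14 and 25 sit below the other mice in Glul (4.77 and 4.94) and Slc1a2 (2.55 and 2.42), and mouse 13 above them in Tbx3 (4.34).

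Glul encodes glutamine synthetase, the defining enzyme of the innermost pericentral hepatocytes. Its promoter is shown from 250 bases before to 50 bases after the transcription start in RefSeq (GRCm38.p6, plus strand, chr1:153899679-153899978). That of Slc1a2 (GRCm38.p6, plus strand, chr2:102706188-102706487) is shown beside it because both RNA levels were lowest in mice 14 and 25. Over the 16 mice their r was 0.83 (permutation p = 0.00947, adjusted 0.157), and 0.19 without these mice (permutation p = 0.503). Capitals mark a match to the TCF/LEF motif CTTTGAT or CTTTGAA, searched on both strands.
Glul: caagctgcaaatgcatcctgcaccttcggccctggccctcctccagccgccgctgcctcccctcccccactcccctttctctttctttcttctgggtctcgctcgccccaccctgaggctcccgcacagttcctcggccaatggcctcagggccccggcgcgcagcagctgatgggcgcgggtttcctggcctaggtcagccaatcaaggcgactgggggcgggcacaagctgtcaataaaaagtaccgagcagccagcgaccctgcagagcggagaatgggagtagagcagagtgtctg
Slc1a2: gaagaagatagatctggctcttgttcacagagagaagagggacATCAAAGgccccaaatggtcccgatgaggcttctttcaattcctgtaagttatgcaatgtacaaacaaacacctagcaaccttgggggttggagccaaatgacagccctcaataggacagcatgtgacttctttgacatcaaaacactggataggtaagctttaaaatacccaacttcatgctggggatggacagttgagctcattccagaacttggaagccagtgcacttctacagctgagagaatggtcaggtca
Slc1a2 held 1 match, to CTTTGAT on the reverse strand at position -207 from the start, and Glul held none. The promoters of Oat and Axin2, the other members in the table, held none either, and 8.65% of the 32851 mouse promoters of this length held a match. The Glul promoter had a GC content of 64.3% and 17 CpG, that of Slc1a2 45.7% and 1 CpG, and the median promoter 52.7% and 7 CpG.

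Glul was measured by 3 probes on all 16 arrays. The brightest, A_55_P2142146 at chr1:155756765-155756824 (mm9), stood for the gene. The other probes, at chr1:155755109-155755168 and chr1:155751765-155751824 (mm9, plus strand), are shown because they were also low in mice 14 and 25, with r to the brightest probe of 0.82 and 0.67.
A_66_P134479: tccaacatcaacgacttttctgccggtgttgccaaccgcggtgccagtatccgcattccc
A_52_P143866: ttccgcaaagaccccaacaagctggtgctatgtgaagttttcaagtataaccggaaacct
The Glul level was 5.66 to 5.99 in Conv + PBS mice (median 5.83). In Conv + LM mice it was 6.11, 4.77, 5.67, 5.69 and 5.67 for mice 13 to 17. In Conv + OM(HFD) mice it was 4.94, 5.68, 5.70, 5.90 and 5.69 for mice 25, 26, 28, 29 and 30. One mouse in each recipient group, 14 and 25, lay well under every other mouse, and the rest overlapped the vehicle mice. The mean was 5.83 ± 0.13 (SD, n = 6) in Conv + PBS, 5.58 ± 0.49 (n = 5) in Conv + LM and 5.58 ± 0.37 (n = 5) in Conv + OM(HFD) mice. Against Conv + PBS mice the log2 difference was -0.25 with either microbiota (95% interval -0.68 to 0.18 for each), with unadjusted limma p of 0.227 and 0.233 and exact permutation p of 0.0931 and 0.266. It was -0.05 for Conv + LM mice without mouse 14 and -0.09 for Conv + OM(HFD) mice without mouse 25. Recipients of the 2 microbiotas differed by -0.0032 with an interval of -0.45 to 0.44, and no neighbours in the order of group means differed beyond their spread.

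All Glul probes were low in these mice. A_66_P134479 read 3.80 in mouse 14 and 3.56 in mouse 25, against 4.29 to 4.90 in Conv + PBS mice. A_52_P143866 read 0.66 and -0.02, against 0.86 to 1.63. Mouse 13, the highest in the brightest probe, was not high in the others (4.46 and 0.86).

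Slc1a2 encodes the glutamate transporter GLT-1, which feeds glutamate to glutamine synthetase in pericentral cells. Its probe, at chr2:102617706-102617765 (mm9, plus strand), is shown because it read lowest in mice 14 and 25, as Glul did.
A_52_P168496: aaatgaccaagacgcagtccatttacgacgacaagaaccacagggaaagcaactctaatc
The Slc1a2 level was 2.90 to 3.34 in Conv + PBS mice (median 3.20). In Conv + LM mice it was 3.17, 2.55, 3.07, 3.15 and 3.26 for mice 13 to 17. In Conv + OM(HFD) mice it was 2.42, 3.04, 3.17, 3.13 and 3.30 for mice 25, 26, 28, 29 and 30. Mice 14 and 25 were again the lowest of all 16, and the other mice of the 3 groups overlapped. The log2 difference from Conv + PBS mice was -0.13 for Conv + OM(HFD) and -0.11 for Conv + LM mice (SE 0.16 each, exact permutation p = 0.496 and 0.522), and became 0.014 without mouse 25 and 0.017 without mouse 14. On no array was a second Slc1a2 probe well above background.

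Oat encodes ornithine aminotransferase, which turns ornithine into glutamate precursors. Vehicle mice had levels of 6.28 to 7.03 (median 6.55), recipients of the lean microbiota 6.26 to 7.43 (median 6.86) and those of the HFD-microbiota 6.31 to 6.88 (median 6.64). It was the one gene with a higher mean in both recipient groups than in the vehicle group, by 0.28 (interval -0.10 to 0.66) in Conv + LM and 0.04 (interval -0.34 to 0.43) in Conv + OM(HFD) mice, with unadjusted limma p of 0.133 and 0.805. Mouse 16 was the lowest of the Conv + LM group. Without it the Oat difference from the vehicle group was 0.43, and that of Conv + OM(HFD) from Conv + LM mice -0.39, both with an unadjusted limma p under 0.05. Leaving out vehicle mouse 1 gave 0.37 for the lean microbiota against the vehicle, also under 0.05. Without mouse 15, the highest of all 16 (7.43), the same differences were 0.14 and -0.096. Within slides 1 and 2 the lean-microbiota difference was 0.43 and 0.13, the first with an unadjusted limma p under 0.05. Rhbg encodes an ammonium transporter of the pericentral membrane, and its level was 0.65 to 2.16 in Conv + PBS mice, 0.81 to 1.77 in Conv + LM and 0.98 to 1.40 in Conv + OM(HFD) mice. The Rhbg differences from Conv + PBS mice were -0.04 and -0.14 (SE 0.24 each), inside the spread of the vehicle mice (SD 0.55).

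Gulo encodes gulonolactone oxidase, the last step of ascorbate synthesis in mice. It varied least of the 8 genes within groups, with a SD of 0.11 at the percentile 6.69 of all genes, against a median SD of 0.24 over all genes tested. Gulo ranged from 6.74 to 7.02 with the vehicle (median 6.82), from 6.64 to 6.91 with the lean microbiota (median 6.74) and from 6.50 to 6.84 with the HFD-microbiota (median 6.71), with mouse 25 the lowest. Conv + OM(HFD) mice differed from Conv + PBS mice by -9.08% (log2 difference -0.14, interval -0.31 to 0.03), the smallest limma p among the 8 genes in that comparison (0.107 unadjusted, exact permutation p = 0.0801). It was -0.0885 without mouse 25. Conv + LM mice lay between them at -0.07 from the vehicle mice on the log2 scale (exact permutation p = 0.292), and no neighbours in this order differed beyond their spread.

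The remaining genes report or tune the Wnt signal itself. Axin2, a feedback scaffold of the β-catenin destruction complex, was close to the limit of the array: its probe was well above background in 1 of 6 Conv + PBS, 3 of 5 Conv + LM and 1 of 5 Conv + OM(HFD) mice, and a second probe in none. Its level ran from -6.02 to -4.21, -6.07 to -3.44 and -6.87 to -4.14 in the 3 groups. With the HFD-microbiota Axin2 differed from the level with the lean one by -0.66 (interval -1.94 to 0.63, exact permutation p = 0.397). With the slide as a block in the same limma fit it was -0.94, with an unadjusted p under 0.05, while normexp background correction gave -0.02 and leaving out mouse 29 gave -0.28, neither passing. Within slides it was -0.80 on slide 1 and -1.34 on slide 2, the second with an unadjusted limma p under 0.05, where both Conv + OM(HFD) mice and 2 of the 3 Conv + LM mice were not well above background. Against the vehicle Axin2 differed by -0.23 in Conv + OM(HFD) mice (interval -1.46 to 0.99, exact permutation p = 0.701). In Conv + LM mice it differed by 0.42 (interval -0.81 to 1.65, exact permutation p = 0.442). Within slides 1 and 2 this was 0.51 and -1.45 in Conv + OM(HFD) mice, the second with an unadjusted limma p under 0.05. In Conv + LM mice it was 1.31 (unadjusted limma p under 0.05) and -0.11. On slide 2 none of the Conv + PBS and Conv + OM(HFD) arrays was well above background, and on slide 1 mouse 2 alone of the Conv + PBS mice was. These slide values therefore compare signals near background.

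Tbx3, a T-box repressor downstream of β-catenin, was measured by 2 probes. Its level was 2.48 to 3.21 in Conv + PBS mice (median 2.76). In Conv + LM mice it was 4.34, 2.65, 2.79, 2.45 and 1.99 for mice 13 to 17. In Conv + OM(HFD) mice it was 2.59, 3.02, 1.94, 2.27 and 2.13 for mice 25, 26, 28, 29 and 30. Mouse 13 stood alone above all others, also in the dimmer probe (2.23, against -0.05 to 0.71 in the other 15 mice). The difference of Conv + LM from Conv + PBS mice was 0.07 (exact permutation p = 0.892) and turned to -0.31 without mouse 13. It was 0.88 on slide 1, which holds mouse 13, and -0.53 on slide 2. The HFD-microbiota differed from the lean one by -0.45 in Tbx3, by -0.078 without mouse 13, and by -1.27 on slide 1 (unadjusted limma p under 0.05) and 0.24 on slide 2. Conv + OM(HFD) mice differed from Conv + PBS mice by -0.39 (interval -1.07 to 0.29, exact permutation p = 0.0952).

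Lgr5, the R-spondin receptor of the pericentral rim, was the lowest in Conv + OM(HFD) mice by the brighter of its 2 probes, without passing the test. It spanned -2.63 to -0.38 with the vehicle (median -1.09), -2.63 to -0.67 with the lean microbiota (median -1.24) and -2.32 to -1.18 with the HFD-microbiota (median -1.34). Against Conv + PBS mice the difference was -0.55 (interval -1.43 to 0.32, exact permutation p = 0.258), the largest of the 8 genes in that comparison. Without mouse 6, the lowest vehicle mouse, it was -0.85, with an unadjusted limma p under 0.05. The second probe, well above background on 8 of 16 arrays, gave 0.42 (SE 0.76) in the opposite direction.

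**Figure D2:**
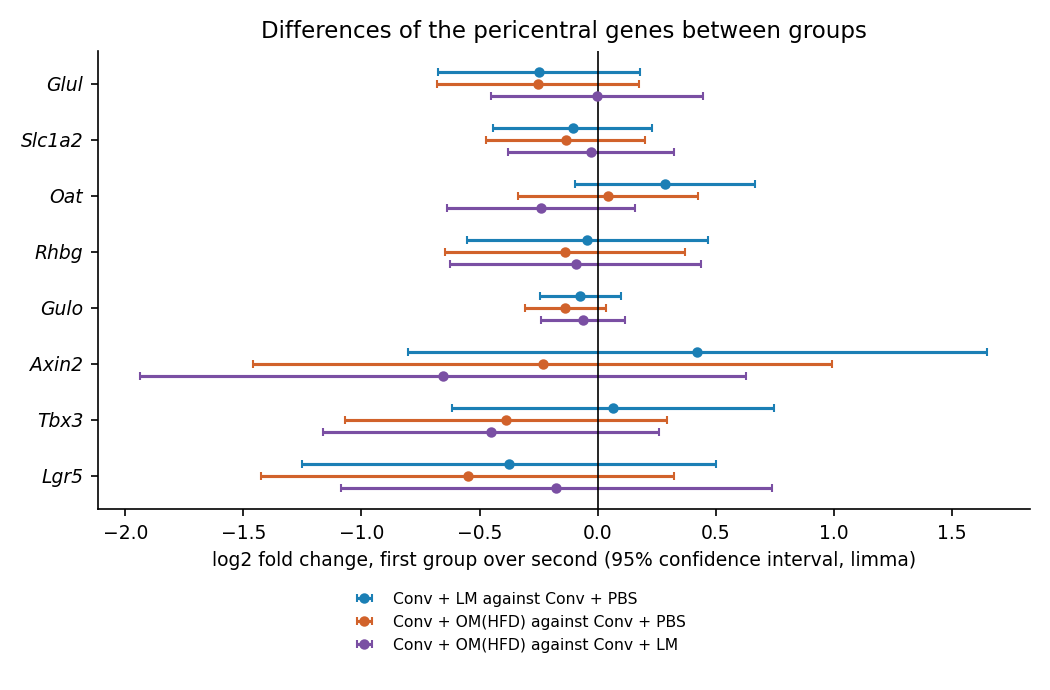
Log2 fold change of each of the 8 genes (x axis, first group over second) with its 95% confidence interval from limma, for the 3 comparisons. Every interval crosses 0, from the narrow ones of Gulo to those of Axin2 (-1.94 to 0.63 for Conv + OM(HFD) against Conv + LM).

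Most of these non-passing differences had the same sign. With the HFD-microbiota 7 of 8 genes had a lower mean than in Conv + PBS mice, where 50.2% of all genes did, and their median log2 difference was -0.19 against -0.00038 over all genes tested. With the lean microbiota 5 of 8 were lower (54.1% of all genes), with a median of -0.059 against -0.014. Both comparisons share the 6 Conv + PBS mice. Between the recipient groups 8 of 8 were lower with the HFD-microbiota (47.4% of all genes), with a median of -0.13 against 0.0087, although Glul and Slc1a2 turned to the other sign with the slide as a block (0.035 and 0.015). Without single mice this count ranged from 4 to 8. The members share cells and mice and are not replicates, and no test of their joint direction was made.

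Among the other genes of the lobule, 19 pericentral and 19 periportal genes could be tested. Of the other pericentral genes 1 was higher and 0 lower at an unadjusted limma p under 0.05 in Conv + OM(HFD) against Conv + PBS mice (1.53% and 1.74% of all genes), with a median difference of 0.03. One gene, Csad, a taurine synthesis enzyme, was the 1 higher in both comparisons, also in Conv + LM mice (1.72% of all genes). Csad was 4.24 to 5.17 in Conv + PBS, 4.40 to 5.5 in Conv + LM and 5.25 to 5.66 in Conv + OM(HFD) mice, so the last group lay wholly above the first. Its difference was 0.70 (SE 0.19, unadjusted limma p = 0.00231, exact permutation p = 0.00433) with the HFD-microbiota and 0.41 (SE 0.19, unadjusted limma p = 0.0490, exact permutation p = 0.115) with the lean one, a call that was lost without any one of several mice. The P450 enzymes Cyp2e1 (0.04 and -0.07) and Cyp1a2 (-0.15 and -0.02), which also depend on Wnt, did not pass in either comparison, with limma p from 0.368 to 0.902. Of the periportal genes 0 passed for the HFD-microbiota and 1 was lower for the lean one, the protease gene Ctsc at -0.40 (exact permutation p = 0.0736), where 2.23% of all genes were lower at this threshold. The Ctsc call was lost with the slide as a block and without any one of several mice. The periportal glutaminase Gls2 differed by -0.05 and 0.09 and the P450 Cyp2f2 by -0.05 and -0.18, none at an unadjusted limma p under 0.05. The lean-microbiota difference of Cyp2f2 had a p under 0.05 with quantile normalization, with array weights and without any one of mice 1, 2, 6 and 17.

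Along the Wnt route itself few genes passed the unadjusted threshold. Of 8 tested ligands and R-spondins 1 was lower at an unadjusted limma p under 0.05 with the HFD-microbiota (1.74% of all genes), and 0 passed with the lean one (3.95% of all genes in either direction). That gene was Wnt4, a non-canonical ligand, at -1.37 to -0.99 in Conv + PBS and -1.63 to -1.33 in Conv + OM(HFD) mice (difference -0.30, SE 0.09, unadjusted limma p = 0.0059, exact permutation p = 0.0130). Wnt2, the main central vein ligand, was -0.55 to 0.28 in Conv + PBS, -1.47 to -0.39 in Conv + LM and -1.81 to -0.11 in Conv + OM(HFD) mice. Its difference with the lean microbiota was -0.60, which missed 0.05 in limma (p = 0.0519) and passed it unadjusted in the exact permutation test (p = 0.0390). The unadjusted limma p was under 0.05 in 5 of 9 other limma settings, such as the slide as a block (-0.64) and normexp background correction (-0.46), and without any one of mice 1, 2, 3, 15 and 17. With the HFD-microbiota it was -0.34 (exact permutation p = 0.379), and -0.031 without mouse 25. Wnt9b (0.02 and -0.012) and Rspo3 (0.028 and 0.0097) differed by far less than their SE of 0.31 and 0.13. Of 9 receptors and co-receptors 0 passed in any of the 3 comparisons, the one between the recipient groups included (1.56% of all genes higher, 1.15% lower). Of 16 destruction complex and nuclear factor genes, Lef1, a TCF-family factor well above background on 11 arrays, was the 1 that passed, higher by 0.50 with the HFD-microbiota (exact permutation p = 0.0693, with 1.53% of all genes higher at the unadjusted threshold) but by 0.15 with normexp background correction, without the call, while Ctnnb1, the gene of β-catenin, differed by -0.03 and -0.07. Of 8 feedback genes and inhibitors, 19 genes of ammonia and glutamate handling and 8 of ascorbate synthesis and transport, 0 passed in any comparison, where 3.27%, 3.95% and 2.71% of all genes did.

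Single mice stood apart within the groups. Each level was expressed as its deviation from the mean of its own group, in within-group SDs. Mouse 14 of the Conv + LM and mouse 25 of the Conv + OM(HFD) group were the lowest of all 16 in Glul (-2.31 and -1.84 SD) and Slc1a2. Each was lowest of its group in 3 of the 8 pericentral genes and highest in 0. Axin2 lay above the group mean in mouse 14, and Oat, Rhbg, Axin2, Tbx3 and Lgr5 did so in mouse 25. Cyp2e1 was lowest in its group in both mice, at 9.22 and 9.37 against 9.48 to 9.81 in Conv + PBS mice. Gls2, on the periportal side, was highest in its group in both, at 6.46 and 6.39 against 5.96 to 6.20. Cyp1a2 set them apart, since it was low in mouse 25 alone (2.69, against 3.24 or more in the other 15 mice) and 3.63 in mouse 14. Mouse 14 was the lowest of its group in 11 of the 19 other pericentral genes and the highest in 12 of the 19 periportal ones, and over all genes it was lowest in 27.5% and highest in 20.4%. Mouse 25 was lowest in 9 and highest in 6 of the same 2 lists, against 28.6% and 24% over all genes. Mouse 13 was the highest of its group in 6 of the 8 pericentral genes (19.8% over all genes). Mouse 15 was the highest of its group in 10 of the 19 other pericentral genes and in 0 of the 19 periportal ones (19.5% over all genes), but in 1 of the 8 members.

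Of the central vein ligands, Wnt2 was -1.47 in mouse 14 and -1.81 in mouse 25, and Rspo3 was -0.77 and -0.92, each the lowest of its group. Wnt9b was lowest of its group in mouse 25 (-4.33) but not in mouse 14 (-3.798, with mouse 13 at -3.801). Of the 8 endothelial markers 5 were lowest of their group in mouse 14 and 5 in mouse 25, against 27.5% and 28.6% over all genes. Both sets included the central vein markers Kit and Cdh13 and the sinusoidal genes Kdr and Clec4g. Pecam1, a marker of all endothelium, was highest of its group in mouse 14 (-2.32) and in the middle in mouse 25 (-3.04). Mouse 14 was highest of its group in 2 of the 8 endothelial markers and mouse 25 in 0, against 20.4% and 24% over all genes. Mouse 25 was also highest of its group in 6 of 6 Kupffer cell and 4 of 4 tested neutrophil markers (24% over all genes). It was lowest in 5 of 6 stellate cell markers (28.6% over all genes). Mouse 14 was highest in 2 of 6 Kupffer cell markers (20.4% over all genes) and lowest in 1 of 6 stellate cell markers (27.5% over all genes). Vehicle mouse 1 was likewise highest of its group in 6 of 6 Kupffer cell and 4 of 4 neutrophil markers (16% over all genes). Its mean log2 levels of these lists (3.14 and 1.23) lay above those of mouse 25 (1.94 and 1.01), while its Glul (5.85) and Slc1a2 (3.27) lay within the range of the other vehicle mice. The part of these cells in the low Glul values was not tested. Both arrays lay on slide 1. Their median r with the other arrays (0.983 each) was under that of every array but mouse 1 (0.981), in a range up to 0.989, and their median absolute deviation from the group mean (0.174 for mouse 25 and 0.168 for mouse 14) was among the 3 highest of the 16.

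**Figure D3:**
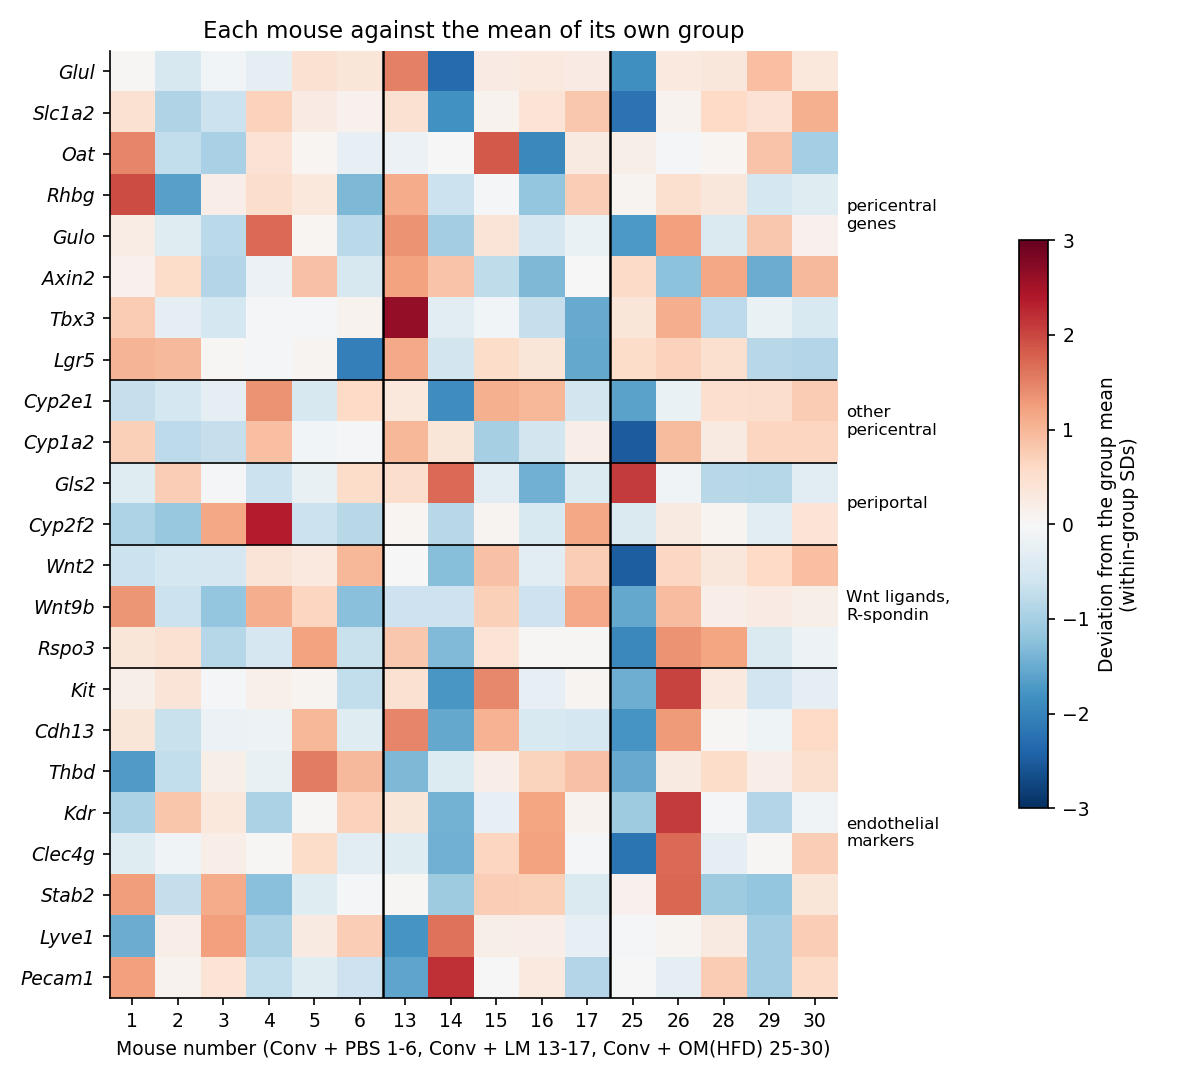
Deviation of each mouse (x axis) from its group mean in within-group SDs (colour, blue below and red above) for the 8 pericentral genes and for other pericentral, periportal, Wnt ligand and endothelial genes (y axis). Mice 14 and 25 are blue in Glul, Slc1a2, Wnt2, Rspo3, Kit and Cdh13 and red in Gls2.

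Co-variation was measured by correlating these deviations over the 16 mice for all 28 pairs of the 8 genes. Pearson's r was above 0 in 22 pairs, with a median of 0.21, while the median r of a member with all 17027 genes ranked was between -0.051 and 0.054 for the 7 members ranked. Of these, 3 had an unadjusted permutation p under 0.05, and 0 after Benjamini-Hochberg adjustment. Glul and Slc1a2 gave r = 0.83 (permutation p = 0.00947, adjusted 0.157) and Spearman's rho = 0.51 (permutation p = 0.0586, adjusted 0.387). Without mice 14 and 25, the farthest from the median of Glul, r was 0.19 (n = 14, permutation p = 0.503), so the relation rests on them. Of all genes ranked, 0.094% had an r with Glul as high as that of Slc1a2. The r of this pair was 0.91 among the 8 mice of slide 1, which holds both, and -0.18 on slide 2. Slc1a2 and Gulo gave r = 0.65 (permutation p = 0.0159, adjusted 0.157, rho = 0.53, p = 0.0569, adjusted 0.387) and Glul and Gulo r = 0.61 (permutation p = 0.0168, adjusted 0.157, rho = 0.37, p = 0.187, adjusted 0.633). Without mice 14 and 25 these were 0.27 and 0.24, and within slides 0.92 and 0.34 for Slc1a2 and Gulo and 0.95 and -0.80 for Glul and Gulo. Oat showed no detectable relation to Glul (r = 0.0098, rho = -0.11, permutation p for rho = 0.708), although both are classed as pericentral.

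Pairs of a ligand with a pericentral gene made 24, of which 8 had an unadjusted permutation p under 0.05 for r, 6 for rho and 0 after adjustment for either. Wnt2 with Slc1a2 (r = 0.83, permutation p = 0.00568, adjusted 0.0772, rho = 0.51, p = 0.0599) and Wnt2 with Glul (r = 0.74, permutation p = 0.0161, adjusted 0.0772, rho = 0.54, p = 0.0427) led by r. Without mice 14 and 25 they were 0.36 and 0.08, so both rest on these mice. Rspo3 with Glul fell from 0.66 to 0.10, and Rspo3 with Slc1a2 from 0.60 to -0.13. Of the 24 pairs 6 had r below 0, led by Wnt2 with Lgr5 (r = -0.41, permutation p = 0.109, adjusted 0.238, rho = -0.48, p = 0.0769), which was -0.71 without mice 14 and 25 (n = 14, permutation p = 0.0096) and -0.21 and -0.67 within the slides. Rspo3 with Lgr5 went the other way (r = 0.39, permutation p = 0.137, adjusted 0.275, rho = 0.55, p = 0.0368, adjusted 0.171). It was 0.63 without mice 14 and 25 (permutation p = 0.0222) and 0.31 and 0.70 within the slides. The r of Wnt9b with Gulo was 0.65 (permutation p = 0.0101, adjusted 0.0772, rho = 0.65, p = 0.0112, adjusted 0.171), and 0.60 and 0.72 within the slides. Leaving out mice 25 and 6, the farthest in Wnt9b, gave 0.48 (n = 14, permutation p = 0.144). Wnt9b with Slc1a2 gave 0.63 (permutation p = 0.0127, adjusted 0.0772, rho = 0.54, p = 0.0347, adjusted 0.171), and 0.75 and 0.47 within the slides. Without mice 25 and 6 that pair gave 0.55 (permutation p = 0.0914). Wnt9b with Oat gave 0.54 (permutation p = 0.0376, adjusted 0.129, rho = 0.60, p = 0.0234, adjusted 0.171), which became 0.68 without mice 25 and 6 (permutation p = 0.0174), and 0.12 and 0.61 within the slides.

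**Figure D4:**
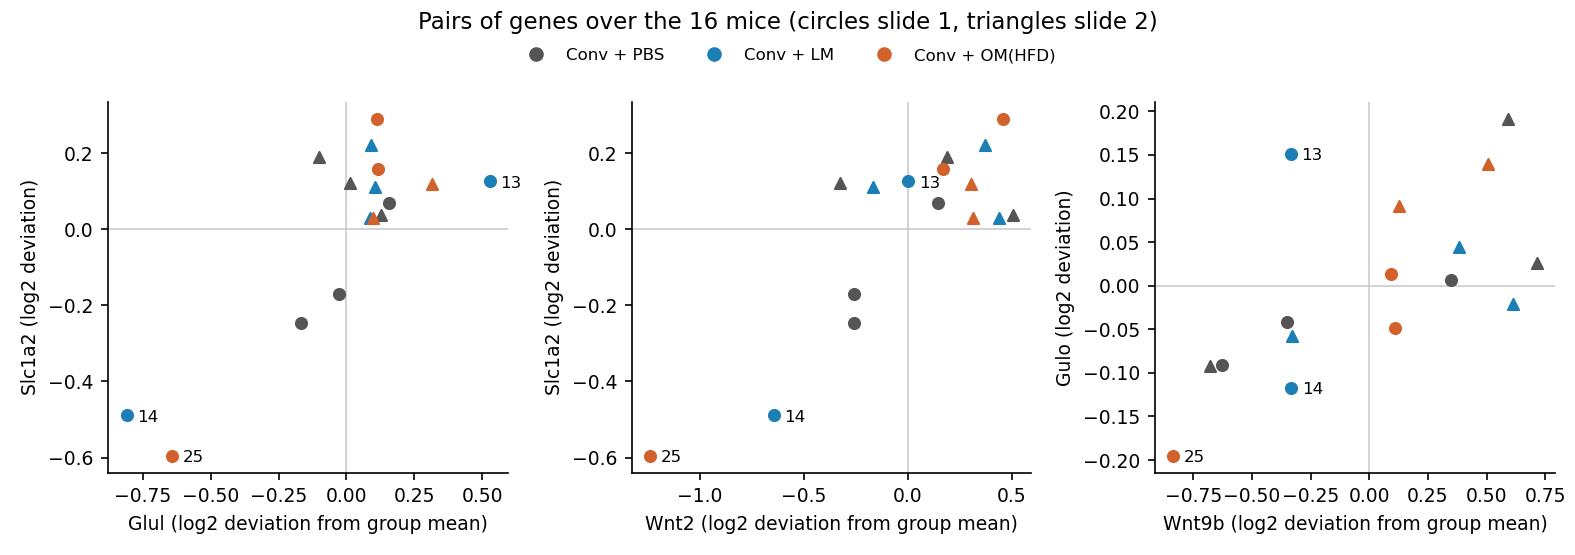
Deviation from the group mean on the log2 scale for Glul against Slc1a2, Wnt2 against Slc1a2 and Wnt9b against Gulo, 1 point per mouse (colour group, circles slide 1, triangles slide 2). Mice 14 and 25 lie apart in the first 2 panels (r = 0.83 in each), while the third is spread along its range (r = 0.65).

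Among 17027 genes well above background on all arrays, the closest in pattern to 7 of the 8 pericentral genes (Axin2, dim on most arrays, was not ranked) were sought by Pearson's r over the 16 mice, as a description. For Glul these were Slc16a11 (0.90), the unnamed transcript NAP060515-1 (0.89), Arl6ip1 (0.89), Dock3 (0.88) and Gm4425 (0.86), with Slc1a2 at rank 16. Without mice 14 and 25, the farthest in Glul, these 5 values were 0.58, 0.71, 0.64, 0.52 and 0.45. Slc1a2 was closest to NAP060515-1 (0.93), Dock3 (0.91), a transcript with no symbol (0.90), Slc35a3 (0.89) and Arhgap23 (0.89), with Glul at rank 20. Oat was closest to Bmp7 (0.78), Lhpp (0.78), Adcy7 (0.77), Rasgrp2 (0.76) and Ctcflos (0.76). Lhpp is also a pericentral gene of the list and lies near Oat on chromosome 7, with 2 genes annotated between them in RefSeq. Rhbg was closest to Ly6c1 (0.90), Ly6c2 (0.86), the immunoproteasome gene Psmb8 (0.84), the interferon-induced Gbp7 (0.81) and Gstm2 (0.80). Gulo was closest to malic enzyme Me1 (0.90), Dnaja4 (0.88), Mospd3 (0.88), the unnamed NAP001637-001 (0.87) and Ssr3 (0.86). Tbx3 was closest to Xpo4 (0.87), Tmem80 (0.86) and 3 transcripts with no symbol (0.83 to 0.87), and without the 2 mice farthest in Tbx3 the 5 values were 0.47 to 0.61. Lgr5 was closest to Coro7 (0.94), Apol7c (0.91), Ctc1 (0.91), Apol7a (0.90) and 1 transcript with no symbol (0.91). Ly6c1 and Ly6c2, and Apol7c and Apol7a, are related copies whose probes may share signal.

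The hepatocyte markers were high on every array. From 49.7% to 58.3% of probes were well above background, and Pearson's r between arrays of a group was 0.976 or more. The arrays lay on 2 slides of 8, each with mice of all groups. The mean log2 level of 5 measured hepatocyte markers was 8.65 to 9.04 in all mice. Of 6 kidney markers 1 could be tested and of 6 pancreas markers 3, with the rest, such as Umod and Pnlip, not well above background. Adipose tissue (4 of 6 tested, Adipoq not), neutrophil (4 of 6), B cell (4 of 6), Kupffer cell (6 of 6), pancreas and kidney lists had 0 genes at an unadjusted limma p under 0.05 in any comparison. The mean log2 level of the 4 adipose markers was 0.85 in mouse 15, the mouse with the highest Oat, against -2.91 to -0.93 in the other 15 mice, and its part in the Oat values was not tested. With the HFD-microbiota 3 of 6 stellate cell markers were lower than in Conv + PBS mice: Lrat by -0.63 (exact permutation p = 0.00649), Colec10 by -0.47 (p = 0.00216, the smallest possible) and Dcn by -0.26 (p = 0.0433). Over all genes 1.74% were lower at the same threshold. Of the other 3 stellate markers Reln differed by -0.34, Des by 0.54 and Col1a1 by 0.65, none passing, and the median over the 6 was -0.30. Within slides 1 and 2 Lrat differed by -0.63 and -0.60, Colec10 by -0.70 and -0.17, and Dcn by -0.45 and -0.011. In the endothelial list 1 of 8, Clec4g, was lower by -0.48 (exact permutation p = 0.0130), by -0.72 and -0.15 within the slides and by -0.31 without mouse 25, which ended the call. In the bile duct list 1 of 6, Cftr, well above background on 6 arrays, differed by -0.76 (exact permutation p = 0.0693), by -0.37 without mouse 29 and by -0.017 with normexp background correction, both without the call. None passed after adjustment, and their part in the pericentral values was not tested.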

How the data were processed

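Liver RNA of 16 mice was measured on Agilent 1-colour mouse arrays. The authors extracted spot signals with Agilent Feature Extraction 10.10.1.1 and deposited each array's intensity values, background-subtracted and multiplicatively detrended within the array and with no normalization between arrays. The authors also deposited log2 values, which matched quantile-normalized log2 median intensity when set against the scanner output and which served as an alternative. limma is listed in the submitters' processing notes, with no version.

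Control spots were left out, log2 was taken of each spot and the 75th percentile of the array subtracted (223.1 to 323.7 intensity units). Outlier spots were then left out and the spots of a probe averaged. A probe was kept where 5 or more of 16 arrays had it well above background (30664 probes, 20404 genes), and the brightest stood for a gene. All groups entered a single fit of limma 3.58.1 (R 4.3.3; lmFit, eBayes), using Benjamini-Hochberg adjustment over all genes. Two-sided exact permutation tests over mice reach at least 0.00216 for 5 against 6 and 0.00794 for 5 against 5. Correlations used deviations from group means and 100000 permutations within groups. Promoters were read from RefSeq (GRCm38.p6), which lists all 8 symbols and holds promoters of 4. Probe names and mm9 positions are those of the array design. The fits and correlations were tested on simulated data. The R package data.table (version 1.17.8), Python 3.11.15, numpy 2.4.6, pandas 2.3.3 and matplotlib 3.10.9 were used.

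The members and lists were chosen with earlier results of these data known. Named were all 8 members, listed genes at an unadjusted p under 0.05, Cyp2e1, Cyp1a2, Gls2, Cyp2f2, Wnt2, Wnt9b, Rspo3 and Ctnnb1, and the 5 genes closest in pattern to a member. Kit, Cdh13, Kdr, Pecam1 and single marker genes were chosen for mention once values had been seen. The alternatives were normexp background correction (offset 50), quantile normalization, the authors' log2 values, other filters, the slide as a block, group and slide means removed, array weights, only the groups compared, the mean of all probes, the methods' t-test, Spearman's rho and leaving out each mouse. Leaving out mice 14 and 25 together was chosen after seeing the data. The number of arrays limits the precision of every value.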

Additional observations from a re-analysis of the deposited data

Results flagged for a closer look

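Of 75 groups of mice examined for the 8 pericentral genes and the other named genes, 7 held 1 mouse far from the rest of its group by Dixon's test, where chance gives about 5%. Among Conv + OM(HFD) mice, mouse 25 was the lowest in Glul (4.94, next mouse 5.68), Cyp1a2 (2.69, next 3.47) and Wnt2 (-1.81, next -0.40), and the highest in the periportal gene Gls2 (6.39, next 6.00). Among Conv + LM mice, mouse 14 was the lowest in Slc1a2 (2.55, next 3.07) and the highest in the periportal gene Ctsc (2.26, next 2.01). Among Conv + PBS mice, mouse 6 was the lowest in Lgr5 (-2.63, next -1.18).

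The recipient groups differed directly from each other at an unadjusted limma p under 0.05 in 3 named genes, none of them a pericentral gene and none past adjustment. Conv + OM(HFD) mice were lower than Conv + LM mice in the stellate cell markers Lrat (-0.38) and Colec10 (-0.26) and higher in Ctsc (0.41). The calls for all 3 were lost without mouse 25.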

How the results depend on the processing

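The count of pericentral genes at an unadjusted limma p under 0.05 was 0 in all 3 comparisons under every setting that kept all mice, except the slide as a block, which gave 1 (Axin2) for Conv + OM(HFD) against Conv + LM mice and moved the count over all genes from 553 to 878. Leaving out single mice gave 0 to 1 gene in each comparison, the 1 being Lgr5 without mouse 6 or Oat without mouse 1 or 16. Adjusted over 28 pairs of members, 1 pair passed with the mean of all probes and 1 with group and slide means removed. Of the 24 ligand pairs 1 passed with the authors' values, 3 with group and slide means removed, and 0 to 1 without single mice. Without mice 14 and 25 together 0 passed in both families, and r of Rspo3 and Slc1a2 reversed to -0.13.

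Some differences that had not passed the test turned sign. For Conv + OM(HFD) against Conv + PBS mice these were Axin2 (0.073), Wnt9b (0.0401) and Ctnnb1 (0.000739) with normexp, Cyp2e1 with quantile normalization (-0.0357) and the authors' values (-0.0271), Ctnnb1 with the authors' values (0.0353), and Wnt9b with the slide block (0.0377) and array weights (0.23). For Conv + LM against Conv + PBS mice they were Wnt9b with normexp (-0.0181) and the slide block (-0.0291) and Cyp1a2 with the authors' values (0.00195). Between the recipient groups they were Glul and Slc1a2 with the slide block (0.0346 and 0.015), Glul with array weights (0.00614), and Glul (0.0115) and Lgr5 (0.32) with the mean of all probes. The cause was not tested.

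Without single mice, differences that turned ranged as follows. For Conv + OM(HFD) against Conv + PBS: Axin2 -0.53 to 0.15, Ctnnb1 -0.0632 to 0.0204, Cyp1a2 -0.22 to 0.0239, Cyp2f2 -0.0834 to 0.00877, Oat -0.0205 to 0.14, Rhbg -0.28 to 0.0254, Rspo3 -0.0642 to 0.12, Slc1a2 -0.21 to 0.0143 and Wnt9b -0.15 to 0.20. For Conv + LM against Conv + PBS: Cyp1a2 -0.091 to 0.0502, Cyp2e1 -0.11 to 0.00609, Rhbg -0.18 to 0.12, Rspo3 -0.0169 to 0.10, Slc1a2 -0.16 to 0.0165, Tbx3 -0.31 to 0.28 and Wnt9b -0.13 to 0.16. Between the recipient groups: Glul -0.21 to 0.16, Lgr5 -0.45 to 0.0343, Rhbg -0.22 to 0.0241 and Slc1a2 -0.15 to 0.12. Axin2 and the second Lgr5 probe are limited by their signal over background.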
